A study of Mus musculus with 8 samples.

Results

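Axon guidance ligands and receptors are described here in mouse hippocampal cells of the Cck lineage, as a module of 68 genes out of 39017 in the deposited count table. The members are protein-coding genes chosen by symbol alone: 20 semaphorins (classes 3 to 7), 9 plexins, 2 neuropilins, 14 Eph receptors, 8 ephrins, 3 Slits, 4 Robos, 2 netrins (Ntn1 and Ntn4) and the 6 netrin receptors Dcc, Neo1 and Unc5a to Unc5d. Ntn3 is not analysed here. After the filter on low counts 62 of the 68 were tested, among 17654 genes. RNA was isolated by translating ribosome affinity purification (TRAP), which pulls down ribosomes that carry the ribosomal protein L10 fused to EGFP, here in mice that also carry Cck-Cre. The tag marks cells that express Cck or once did. The 5 cKO libraries came from mice with both copies of SMARCA3, a chromatin remodeller encoded by Hltf, floxed (SMARCA3 fl/fl, genotype cKO), and the 3 WT libraries from littermates without SMARCA3 fl/fl. Both groups carry the Cre driver and the L10-EGFP transgene, each library pools 4 hippocampi, and the age and sex of the mice are not given in the labels. How the pools relate to single animals is not stated either, so all p-values measure the spread between pools.

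Growing axons read guidance cues through families of paired ligands and receptors. Semaphorins signal through plexins, with neuropilins as co-receptors for most secreted class 3 members; ephrins are membrane-bound ligands of the Eph receptor tyrosine kinases and can signal back into the cell that carries them; secreted Slits repel axons through Robos; and netrins attract or repel through Dcc, Neo1 and the Unc5 receptors. In the mature hippocampus many of these genes stay expressed and are known for roles in spine shape, synapse number and plasticity, and Epha4 and Plxna4 are among those studied in hippocampal neurons and their mossy fibres.

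The DNA just upstream of a pair of members shows promoters of unlike base composition. Unc5a and Sema4f were taken because they are the receptor and the semaphorin with the smallest p-values among those with a window in the RefSeq promoter table (build GRCm38.p6). Each line gives the 250 bases before the annotated start, 5′ to 3′ on the gene's own strand, with GC boxes in capitals (GGGCGG, or CCGCCC on the other strand, the core of the site of Sp family factors).
Unc5a: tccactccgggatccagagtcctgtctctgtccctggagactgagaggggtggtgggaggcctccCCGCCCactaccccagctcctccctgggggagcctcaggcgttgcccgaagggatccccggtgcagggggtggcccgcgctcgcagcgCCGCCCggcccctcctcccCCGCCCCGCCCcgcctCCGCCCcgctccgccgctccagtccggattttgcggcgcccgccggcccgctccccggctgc
Sema4f: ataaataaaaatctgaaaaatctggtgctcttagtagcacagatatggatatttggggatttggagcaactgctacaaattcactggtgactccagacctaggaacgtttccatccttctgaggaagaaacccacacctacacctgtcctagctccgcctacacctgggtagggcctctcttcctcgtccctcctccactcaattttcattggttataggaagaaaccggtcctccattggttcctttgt
The Unc5a window (chr13:54949161-54949410, plus strand) held 5 GC boxes, 25 CpG dinucleotides and 76.8% G and C. The Sema4f window (chr6:82939770-82940019, minus strand) held no GC box, 4 CpG dinucleotides and 46% G and C. Neither held a TATA box (TATAAA or TTTATA) or an E-box (CACGTG). Over 74 windows of 58 members, 71.6% held a GC box, against 32.7% of all 32851 windows, while 2.70% of the members' windows and 12.4% of all windows held the TATA letters. The E-box letters were in 5.41% of the members' windows and 6.02% of all windows. The median G and C content of the members' windows was 64.4%, against 52.4% over all windows. A match in these letters is a description of the sequence and does not show that a factor binds there.

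Total counts ran from 31760155 to 61823651 per library, of which the 68 genes took 0.251 to 0.326%. Hltf, the targeted gene, was at 5.10, 4.49, 4.21 and 2.83 CPM (library-scaled counts, edgeR's unit) in cKO 1 to 4 and at 11.4 CPM in the library labelled cKO 5, against 13.7, 8.39 and 9.87 CPM in WT 1 to 3. The library labelled cKO 5 thus lay within the WT range, and its genotype label is not borne out by Hltf. The log2 fold change of Hltf was -0.93 (SE 0.39, edgeR quasi-likelihood test, adjusted p = 0.558, Benjamini-Hochberg over all genes tested), with p = 0.107 by the exact permutation test. Leaving out the library labelled cKO 5 gave -1.36 (SE 0.26, edgeR adjusted p = 0.359). The floxed exons are not stated. Cck was at 571 to 837 CPM in cKO libraries and 415 to 631 CPM in WT libraries. Principal component analysis of log2 CPM set the library labelled cKO 5 apart first (31.1% of variance) and then cKO 4 (22.3%).

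Levels between genes are compared per length, as CPM per kilobase of exon. Eph receptors were the most abundant family and carried 30.8% of the summed level of the 68 genes, followed by semaphorins with 18.8%, ephrins with 13.0%, plexins with 12.7% and netrin receptors with 12.1%. Slits carried 6.08%, Robos 3.31% and neuropilins 3.12%. Both netrins together carried 0.0831%. The module thus consisted mainly of membrane receptors: the 35 receptors summed to 62.0% and the 33 ligands to 38.0%. Of the 68 genes, 41 had a mean level of at least 1 CPM per kb over the 8 libraries and 12 had at least 10.

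The 3 highest members were the class A Eph receptors Epha4, Epha6 and Epha7. Epha4, a receptor for both ephrin classes, averaged 38.6 ± 4.39 CPM per kb in cKO libraries (SD, n = 5) and 36.6 ± 1.98 CPM per kb in WT libraries (SD, n = 3). Over all 8 libraries the mean level was 37.9 CPM per kb for Epha4, 26.7 for Epha6 and 25.2 for Epha7. Next in order came Unc5a (18.4), the semaphorin Sema7a (18.1), the ephrins Efna3 (17.2) and Efnb3 (17.0), the plexin Plxna4 (14.7), the semaphorin Sema3e (13.5), the plexin Plxna1 (12.3), Slit3 (11.99) and Neo1 (10.01). All neighbours in this order overlapped in their ranges over the libraries. Compared within each library, Epha4 always lay above Epha6, Epha7 above Unc5a and Slit3 above Neo1. The other neighbours changed places between libraries. With the longest transcript as the length, the means were 48.2 for Epha4, 36.95 for Epha7, 35.9 for Epha6, 20.1 for Nrp1 and 19.2 for Unc5a. Epha7 then stood above Epha6, Nrp1 above Unc5a, and Robo1 (11.6) above Robo2 (11.3). The order of the members thus depends on the length used.

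Ligands and their known receptors were not at matched levels. Sema3e, a secreted semaphorin that binds Plxnd1, had a mean level of 13.5 CPM per kb and Plxnd1 of 0.811 CPM per kb. Sema7a, a membrane-anchored semaphorin that binds Plxnc1, was at 18.1 CPM per kb and Plxnc1 at 6.35 CPM per kb. The netrin ligands were near the floor, with mean levels of 0.0445 CPM per kb for Ntn1 and 0.219 CPM per kb for Ntn4, while Unc5a, Neo1, Unc5c, Unc5d and Dcc were at 18.4, 10.01, 7.26, 2.98 and 1.95 CPM per kb. Unc5b, known for its role in vessels, was at 0.159 CPM per kb. Slits and Robos were both present, with Slit3 at 11.99, Slit1 at 6.83 and Slit2 at 1.77 CPM per kb beside Robo2 at 5.72 and Robo1 at 5.29 CPM per kb.

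**Figure D1:**
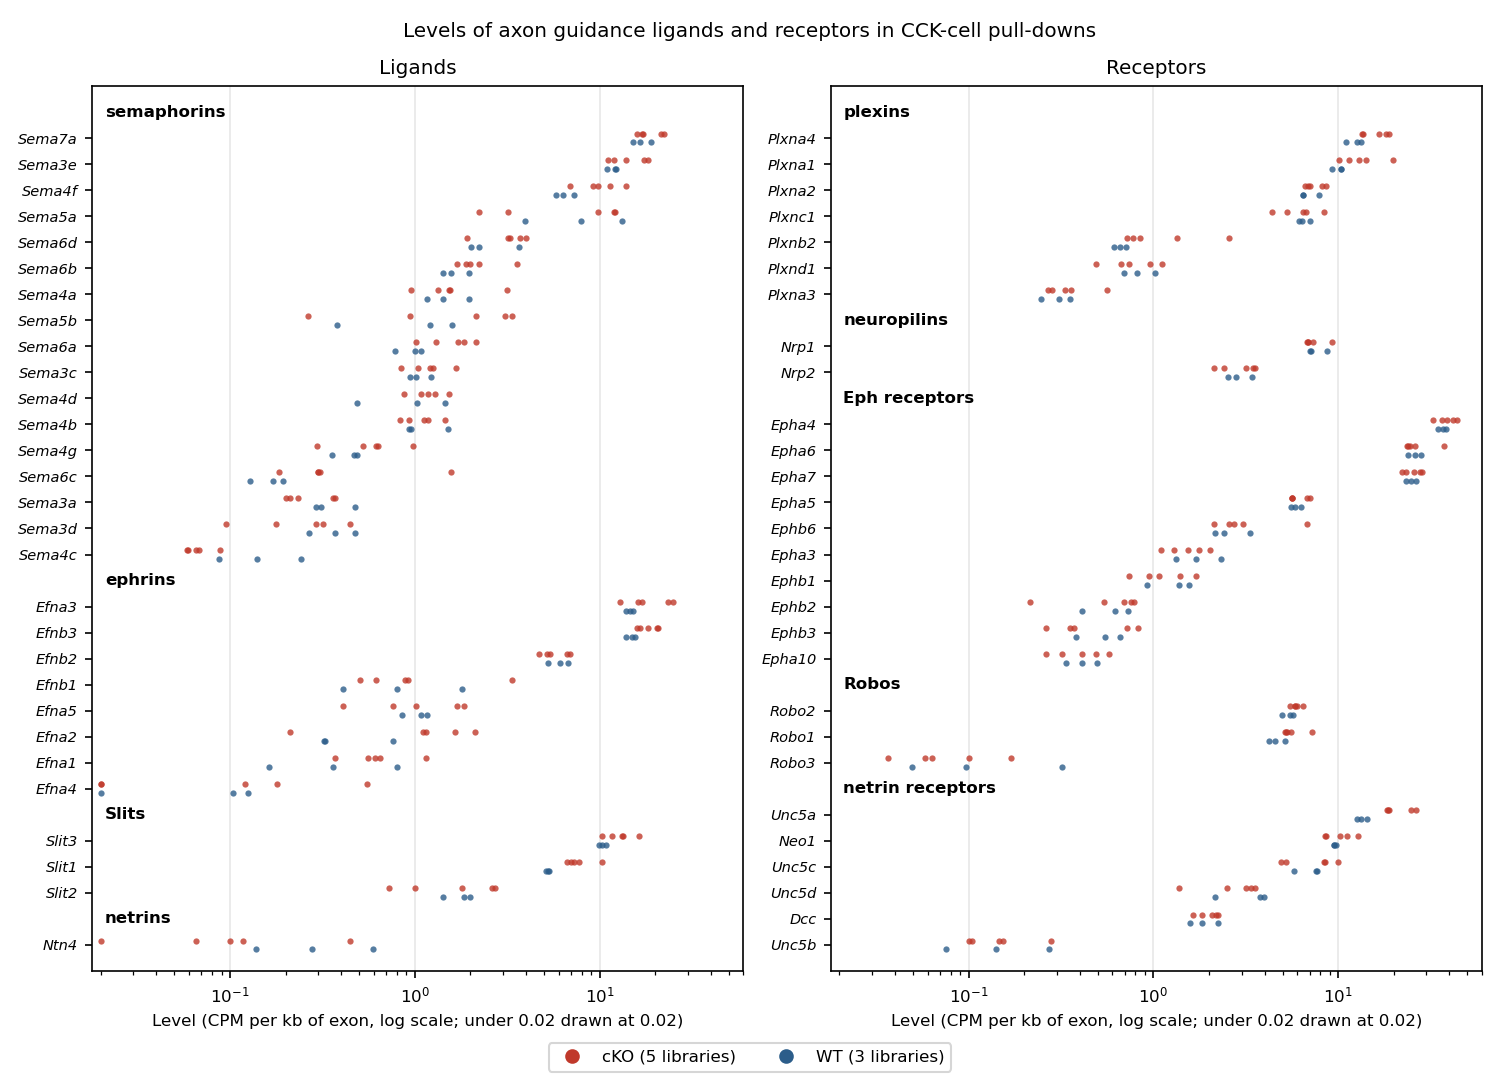
Level of each axon guidance gene with a mean of at least 0.1 CPM per kb, as CPM per kilobase of exon on a log axis, for ligands and receptors, with 1 point per library (cKO red and above, WT blue and below; values under 0.02 are drawn at 0.02). Epha4, Epha6 and Epha7 lie furthest to the right, and the cKO points of Unc5a and Slit1 lie to the right of all WT points.

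The 6 members that were not tested had few counts. Epha2 had none in any library, Robo4 had 7 counts over the 8 libraries, Ephb4 16, Plxnb3 29, Sema3g 57 and Efna4 88. Robo4 and Ephb4 are known from vessels. The vessel marker list summed to 25.0 to 87.0 CPM in cKO libraries and 54.9 to 72.7 CPM in WT libraries, with Rgs5, a pericyte gene that other cells can express, at 18.3 to 82.4 CPM in cKO libraries and 52.9 to 71.4 CPM in WT libraries. Cldn5, the tight junction gene of brain endothelium, had counts in cKO 3 alone (0.0312 CPM), and 6 of the 10 vessel markers were tested.

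Setting cKO against WT addresses how translated RNAs differ when SMARCA3 is deleted in these cells. No member passed the test: edgeR called 0 of 62 members at an adjusted p under 0.05, and 0% of all genes tested. At an unadjusted p under 0.05, which is no call, 10 of 62 members (16.1%) were higher in cKO, beside 5.02% of all genes, and 0 members were lower, beside 3.7% of all genes. The 10 were the ligands Sema4f, Sema6a, Sema6c, Slit1, Slit3 and Efnb3 and the receptors Unc5a, Plxna1, Plxna4 and Plxnb2. Without WT 1 the count was 5 and without WT 2 it was 4, with no share of all genes computed for these fits. Without the library labelled cKO 5 it was 9 of 61, beside 4.47% of all genes. DESeq2 gave an adjusted p to 42 members and called Unc5a and Slit1 higher (4.76%), beside 0.678% of all genes. limma-voom with quality weights called 0 members, beside 0.0227% of all genes. At an unadjusted p under 0.05 it had 7 members (11.3%) higher in cKO, beside 6.24% of all genes. It had 0 members lower, beside 6.51% of all genes. The log2 fold change was above 0 in 43 of 62 members (69.4%) and in 53% of all genes. The median was 0.12 over the members and 0.02 over all genes.

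Unc5a, which encodes a receptor through which netrins repel axons, had the smallest p-value of the module. Unc5a (ENSMUSG00000025876, mm10 chromosome 13, 54949411 to 55006018, plus strand) was at 77.0, 78.1, 77.7 and 103 CPM in cKO 1 to 4 and 111 CPM in the library labelled cKO 5, against 52.5, 59.3 and 55.7 CPM in WT 1 to 3. Every cKO library lay above every WT library, with cKO 4 and the library labelled cKO 5 highest. The means were 89.3 ± 16.3 CPM in cKO (SD, n = 5) and 55.9 ± 3.42 CPM in WT (SD, n = 3). This gave a log2 fold change of 0.68 (SE 0.15; edgeR unadjusted p = 8.5e-04, adjusted p = 0.480), and p = 0.0179 by the exact two-sided permutation test, the smallest p that this test can give with 56 arrangements. DESeq2 gave an adjusted p of 0.0102. When the library labelled cKO 5 was left out, edgeR gave 0.58 and an adjusted p of 0.382. The adjusted p ran from 0.0102 to 0.951 over 19 alternatives, all of which kept the sign.

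The other receptors in the netrin family showed no like difference. Unc5c, a repulsive netrin receptor, had a log2 fold change of 0.07 (SE 0.23), Neo1, which also binds repulsive guidance molecules, of 0.10 (SE 0.14), and Dcc, the attractive receptor, of 0.08 (SE 0.17). Unc5d was at 29.3, 32.8, 23.1, 31.1 and 12.7 CPM in the cKO libraries, with the lowest value in the library labelled cKO 5, against 34.8, 19.8 and 36.4 CPM in WT. Its groups overlapped, and its log2 fold change was -0.23 (SE 0.29). The summed level of the 6 receptors was 42.0 to 46.7 CPM per kb in cKO libraries and 33.8 to 36.7 CPM per kb in WT libraries. These sums did not overlap, but Unc5a was their largest term. Alone it was at 18.5 to 26.5 CPM per kb in cKO libraries and 12.6 to 14.2 CPM per kb in WT libraries. Each of the other receptors overlapped between the groups, and non-overlap of a sum has no share of all genes beside it. Ntn1 had 0 to 0.312 CPM in cKO libraries and 0.106 to 0.797 CPM in WT libraries, too low to read a difference.

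Slit1, a secreted repellent, was the other member that DESeq2 called. Slit1 (ENSMUSG00000025020, chromosome 19, 41600257 to 41743665, minus strand) was at 45.8, 41.5, 42.9 and 39.6 CPM in cKO 1 to 4 and 60.6 CPM in the library labelled cKO 5, against 31.7, 31.1 and 30.2 CPM in WT 1 to 3. All cKO values lay above all WT values, and the WT values lay close together. The means were 46.1 ± 8.44 CPM in cKO (SD, n = 5) and 31.0 ± 0.730 CPM in WT (SD, n = 3). This gave a log2 fold change of 0.57 (SE 0.15; edgeR adjusted p = 0.498), p = 0.0179 by the exact permutation test and an adjusted p of 0.0470 by DESeq2. Without the library labelled cKO 5 it was 0.45, with an adjusted edgeR p of 0.446.

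Slit3, the most abundant Slit, was at 80.6, 70.8, 62.4, 80.9 and 99.5 CPM in the cKO libraries, highest in the library labelled cKO 5, against 62.2, 65.3 and 60.2 CPM in WT. The groups overlapped in cKO 3, and its log2 fold change was 0.33 (SE 0.14, edgeR adjusted p = 0.562, exact permutation p = 0.0893). The log2 fold change of Slit2 was 0.02 (SE 0.38), and the gene varied more within the groups than between them. The Slits summed to 19.3 to 27.6 CPM per kb in cKO libraries and 17.0 to 17.9 CPM per kb in WT libraries. Among their receptors, Robo1 was at 119, 87.7, 86.4, 91.6 and 84.6 CPM in the cKO libraries, with cKO 1 apart, against 69.8, 75.0 and 84.9 CPM in WT (log2 fold change 0.30, SE 0.14, edgeR adjusted p = 0.575). Only the library labelled cKO 5 reached into the WT range, and without it Robo1 did not overlap. For Robo2 it was 0.13 (SE 0.10). Robo3, a Robo of commissural neurons, was at 0.249 to 1.17 CPM in cKO libraries and 0.339 to 2.19 CPM in WT libraries.

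**Figure D2:**
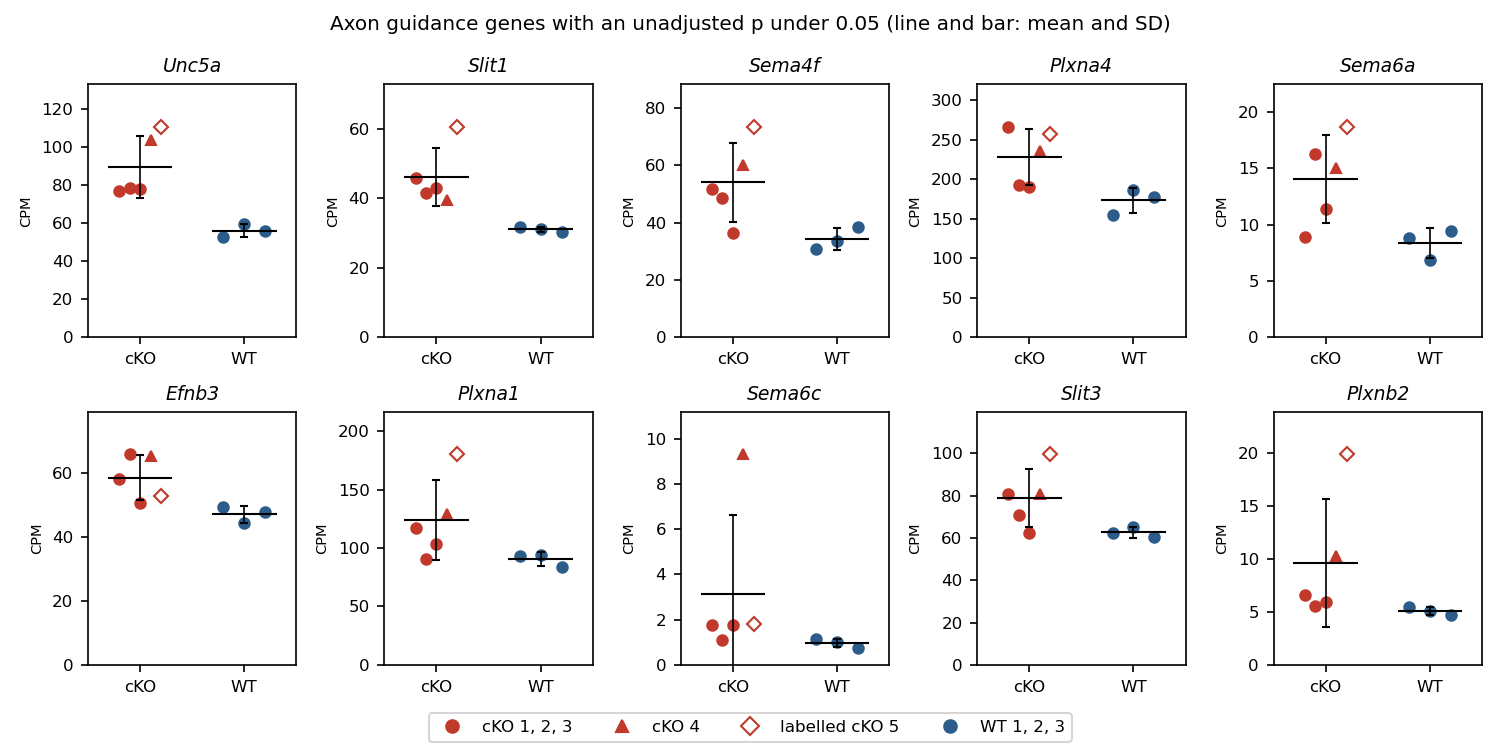
CPM in each library of the 10 axon guidance genes with an unadjusted edgeR p under 0.05, ordered by p, with cKO left of WT, cKO 4 as triangles, the library labelled cKO 5 as open diamonds, and lines and bars for mean and SD (an SD bar below 0 is cut off). Unc5a, Slit1, Plxna4, Efnb3 and Plxnb2 show no overlap between groups, and Sema6c rests on 9.31 CPM in cKO 4.

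Semaphorins, the largest family of ligands, had a median log2 fold change of 0.30 over 19 tested members, of which 14 were above 0 and 3 had an unadjusted p under 0.05, all higher in cKO. Sema4f, a transmembrane semaphorin of class 4, was at 51.9, 48.6, 36.5 and 60.1 CPM in cKO 1 to 4 and 73.6 CPM in the library labelled cKO 5, against 30.7, 33.7 and 38.5 CPM in WT. Only cKO 3 lay within the WT range. Its log2 fold change was 0.66 (SE 0.20, edgeR adjusted p = 0.499, exact permutation p = 0.0714). Sema6a, a transmembrane class 6 semaphorin that binds Plxna2 and Plxna4, was at 8.89, 16.3, 11.4, 15.1 and 18.7 CPM in the cKO libraries, against 8.80, 6.85 and 9.46 CPM in WT. Here cKO 1 overlapped WT, and the log2 fold change was 0.75 (SE 0.26, edgeR adjusted p = 0.499, exact permutation p = 0.0536).

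Sema6c, of the same class, was at 1.78, 1.09, 1.78 and 1.82 CPM in cKO 1 to 3 and the library labelled cKO 5 but at 9.31 CPM in cKO 4, against 1.14, 1.02 and 0.763 CPM in WT. Its log2 fold change of 1.70 (SE 0.71) was 0.73 without cKO 4. All 4 class 6 semaphorins had log2 fold changes above 0, including Sema6b (0.46, SE 0.28) and Sema6d (0.30, SE 0.25). Sema7a and Sema3e, the highest semaphorins, had log2 fold changes of 0.15 (SE 0.14) and 0.30 (SE 0.17). Lower values were seen in some secreted class 3 members at low level. Sema3a, the classic growth cone collapsing factor, was at 5.15, 5.003, 2.78, 3.22 and 2.93 CPM in the cKO libraries, against 6.62, 4.28 and 4.06 CPM in WT. The groups overlapped, with a log2 fold change of -0.38 (SE 0.32), and Sema3d likewise had -0.47 (SE 0.47). Sema4c, at 0.268 to 0.407 CPM in cKO libraries and 0.398 to 1.117 CPM in WT libraries, had the lowest value among semaphorins, -1.19 (SE 0.63, edgeR adjusted p = 0.630). The secreted Sema3b and Sema3f were under 2 CPM in every library. The other class 3 and class 4 members, Sema3c, Sema4a, Sema4b, Sema4d and Sema4g, had log2 fold changes between -0.03 (Sema4b, SE 0.27) and 0.48 (Sema4g, SE 0.36), each with overlapping groups.

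Among plexins, the signalling receptors of semaphorins, class A members were all above 0. Plxna4, which encodes a receptor for class 3 and class 6 semaphorins, was at 267, 193, 190 and 236 CPM in cKO 1 to 4 and 257 CPM in the library labelled cKO 5, against 155, 186 and 178 CPM in WT. The groups did not overlap, although cKO 3 and WT 2 lay close together. Its log2 fold change was 0.40 (SE 0.13, edgeR adjusted p = 0.499, exact permutation p = 0.0357). Plxna1 was at 117, 91.0, 104, 129 and 180 CPM in the cKO libraries, highest in the library labelled cKO 5, against 93.2, 94.3 and 83.6 CPM in WT. Its log2 fold change was 0.46 (SE 0.19) with that library and 0.28 without it. Plxna1 shares 970 exon bases (10.7% of its exons) with the antisense gene Gm26811, and the strand setting of the counting is not stated, so reads of the pair cannot be told apart.

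Plxnb2, a class B plexin that binds class 4 semaphorins, was at 6.57, 5.56, 5.96, 10.3 and 19.9 CPM in the cKO libraries, against 5.50, 5.12 and 4.74 CPM in WT. The groups did not overlap, but cKO 2 lay just above WT 1 and most of the difference lay in cKO 4 and the library labelled cKO 5. For Plxnb2 the log2 fold change was 0.91 (SE 0.41) and was 0.47 without the library labelled cKO 5. Plxna2 (0.10, SE 0.12), Plxnc1 (-0.06, SE 0.18) and Plxnd1 (-0.09, SE 0.30) had log2 fold changes near 0, as did the co-receptors Nrp1 (-0.03, SE 0.13) and Nrp2 (0.02, SE 0.19). The low plexins Plxna3 and Plxnb1 had log2 fold changes of 0.25 (SE 0.35) and 0.52 (SE 0.62). Nrp1 was at 66.3 to 90.5 CPM in cKO libraries and 68.6 to 84.7 CPM in WT libraries.

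Ephrins and Eph receptors differed in their medians. The 7 tested ephrins had a median log2 fold change of 0.33, the 12 tested Eph receptors of 0.03. Efnb3, a transmembrane ephrin with roles in axon repulsion and synapse formation, was at 58.0, 65.8, 50.7, 65.4 and 52.7 CPM in the cKO libraries, against 49.2, 44.2 and 47.7 CPM in WT. All cKO values lay above WT, cKO 3 by a narrow margin. For Efnb3 the log2 fold change was 0.32 (SE 0.13, edgeR adjusted p = 0.538, exact permutation p = 0.0357). Efna3, the ephrin with the highest level, was at 41.1, 31.2, 39.4, 60.8 and 56.9 CPM in the cKO libraries, against 33.7, 36.7 and 35.7 CPM in WT, and overlapped in cKO 2 (log2 fold change 0.37, SE 0.21). Efnb2, known from arteries and synapses, had -0.05 (SE 0.16). Efna2 was low, at 3.52, 0.448, 4.49, 2.46 and 2.36 CPM in the cKO libraries, against 0.691, 0.697 and 1.63 CPM in WT. Only cKO 2 lay below WT, and the log2 fold change was 1.39 (SE 0.66, edgeR adjusted p = 0.579). Efna1, Efna5 and Efnb1, at 0.582, 1.10 and 1.16 CPM per kb, had log2 fold changes of 0.60 (SE 0.62), 0.15 (SE 0.44) and 0.33 (SE 0.66). Efnb1 was at 11.6 CPM in the library labelled cKO 5 and at 1.74 to 3.18 CPM in cKO 1 to 4, against 1.41 to 6.22 CPM in WT. When that library was left out, Efnb1 had -0.46 and Efna5 -0.03.

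The abundant Eph receptors differed in how much they varied between libraries. Among members with a mean of at least 1 CPM, the ratio of the highest to the lowest library was smallest for Epha5 (1.26) and Epha7 (1.27), was 1.34 for Epha4 and 1.59 for Epha6, and reached 12.6 for Sema5b. Epha4 was at 353, 263, 292 and 335 CPM in cKO 1 to 4 and 313 CPM in the library labelled cKO 5, against 296, 278 and 310 CPM in WT. The groups overlapped, and the log2 fold change was 0.08 (SE 0.11, edgeR adjusted p = 0.880). Epha7 (0.03, SE 0.10), Epha5 (0.06, SE 0.11) and Epha6 (0.06, SE 0.15) lay near 0 as well. Epha6 was at 124 to 137 CPM in cKO 1 to 4 and 198 CPM in the library labelled cKO 5, against 127 to 149 CPM in WT, and its log2 fold change was -0.09 when that library was left out. Epha3 (-0.20, SE 0.24) and Ephb1 (-0.14, SE 0.29) had the smallest p-values of the Eph receptors with values below 0 and a mean of at least 1 CPM, and the groups overlapped for both. Of the low Eph receptors, Ephb2 (0.02, SE 0.38), Ephb3 (-0.06, SE 0.42) and Epha10 (-0.01, SE 0.35) were near 0. Epha1 and Epha8 were under 1 CPM in every library.

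**Figure D3:**
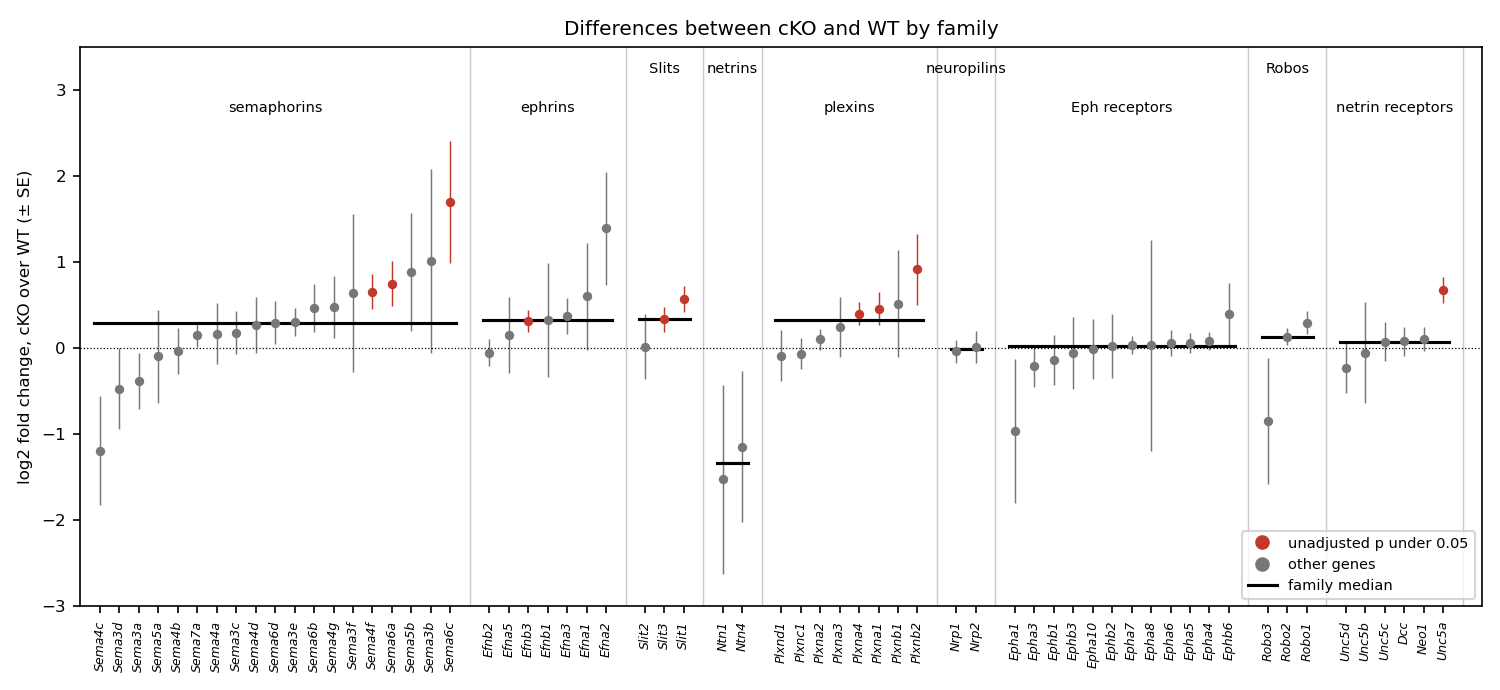
Log2 fold change of cKO over WT with its SE for the 62 tested axon guidance genes, by family, with the family median as a black line and genes with an unadjusted edgeR p under 0.05 in red. The 10 red points all lie above 0, and the medians of Eph receptors (0.03) and neuropilins (-0.01) lie near 0.

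By family the medians were 0.33 for Slits, 0.33 for ephrins, 0.32 for plexins, 0.30 for semaphorins, 0.13 for Robos, 0.08 for netrin receptors, 0.03 for Eph receptors, -0.01 for neuropilins and -1.34 for the 2 netrins, which are near the floor. Ligands had a median of 0.30 and receptors of 0.06. The summed level of all ligands was 121 to 156 CPM per kb in cKO libraries, against 109 to 117 CPM per kb in WT libraries. That of all receptors was 194 to 244 CPM per kb in cKO libraries and 193 to 196 CPM per kb in WT libraries, with an overlap. These differences between families were not tested. In 5 members (8.06%) every cKO library lay above every WT library, beside 3.38% of all genes: Unc5a, Slit1, Plxna4, Efnb3 and Plxnb2. In 0 members did every cKO library lie below WT, beside 3.82% of all genes. Without the library labelled cKO 5 the first count was 6, with Robo1 added, beside 4.74% of all genes.

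Other values also rested on the library labelled cKO 5. When it was left out, the log2 fold changes of 8 tested members turned their sign, to -0.46 for Efnb1, -0.18 for Sema4a, -0.09 for Epha6, -0.03 for Efna5, -0.01 for Epha7, -0.01 for Ephb6, 0.06 for Unc5b and 0.14 for Sema5a. Slit3 (0.23, edgeR unadjusted p = 0.0791) and Plxnb2 (0.47, edgeR unadjusted p = 0.108) were then no longer at an unadjusted p under 0.05. The family medians were then 0.28 for ephrins, 0.24 for semaphorins, 0.23 for Slits, 0.16 for plexins, 0.13 for Robos, 0.11 for netrin receptors, 0.03 for neuropilins, -0.02 for Eph receptors and -1.09 for netrins.

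With 6 libraries, those numbered 1 to 3 in each group, 11 members were higher in cKO at an unadjusted p under 0.05, beside 4.45% of all genes, and 0 were lower, beside 4.94%. Unc5a, Slit1, Sema4f, Efnb3 and Plxna4 were among the 10 and the 11. The other 6 were Sema5b, Sema4g, Slit2, Robo1, Unc5c and Neo1. Sema5b, a transmembrane semaphorin, had a log2 fold change of 1.42 over these libraries and 0.89 (SE 0.69) over all 8, where its groups overlapped.

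Sema5a, Sema5b, Slit2 and Unc5c were low together in cKO 4 and the library labelled cKO 5. Sema5a, a transmembrane semaphorin known to limit synapse formation on dentate granule cells, was at 223, 226 and 182 CPM in cKO 1 to 3, 59.4 CPM in cKO 4 and 41.4 CPM in the library labelled cKO 5, against 73.9, 147 and 248 CPM in WT 1 to 3. Its spread within each group was wider than the difference between them (log2 fold change -0.09, SE 0.54). Sema5b was at 21.8, 23.7, 15.2, 1.88 and 6.68 CPM in the cKO libraries, against 2.69, 8.51 and 11.3 CPM in WT. Slit2 was at 66.9, 68.8, 45.9, 18.4 and 25.5 CPM in the cKO libraries, against 36.1, 46.7 and 50.9 CPM in WT. In each of them WT 1 was the lowest WT library.

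Markers of dentate granule cells, the neurons that send mossy fibres to CA3, moved the same way in their sum, though not they alone. Their 8 markers, all tested and none at 0, summed to 471, 451, 371, 169 and 188 CPM in the cKO libraries, against 220, 322 and 487 CPM in WT. Prox1, a factor of these cells, was at 166, 187, 155, 37.9 and 46.5 CPM in the cKO libraries, against 43.1, 97.0 and 178 CPM in WT. Maml2, of the same list, was low in cKO 4 but not in the library labelled cKO 5. It was at 41.7, 36.4, 26.3, 17.7 and 40.6 CPM in the cKO libraries, against 16.1, 22.6 and 44.8 CPM in WT. Calb1 was at 145, 117, 107, 77.9 and 74.1 CPM in the cKO libraries and varied less in WT (114, 128 and 135 CPM). The 10 pyramidal neuron markers, none at 0, summed to 8545, 8339, 8963, 10204 and 12470 CPM in the cKO libraries, against 8356, 7918 and 7791 CPM in WT. The part of these cell types in the values of the guidance genes was not tested, and in bulk pull-downs fewer cells of a type and less RNA per cell cannot be told apart.

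**Figure D4:**
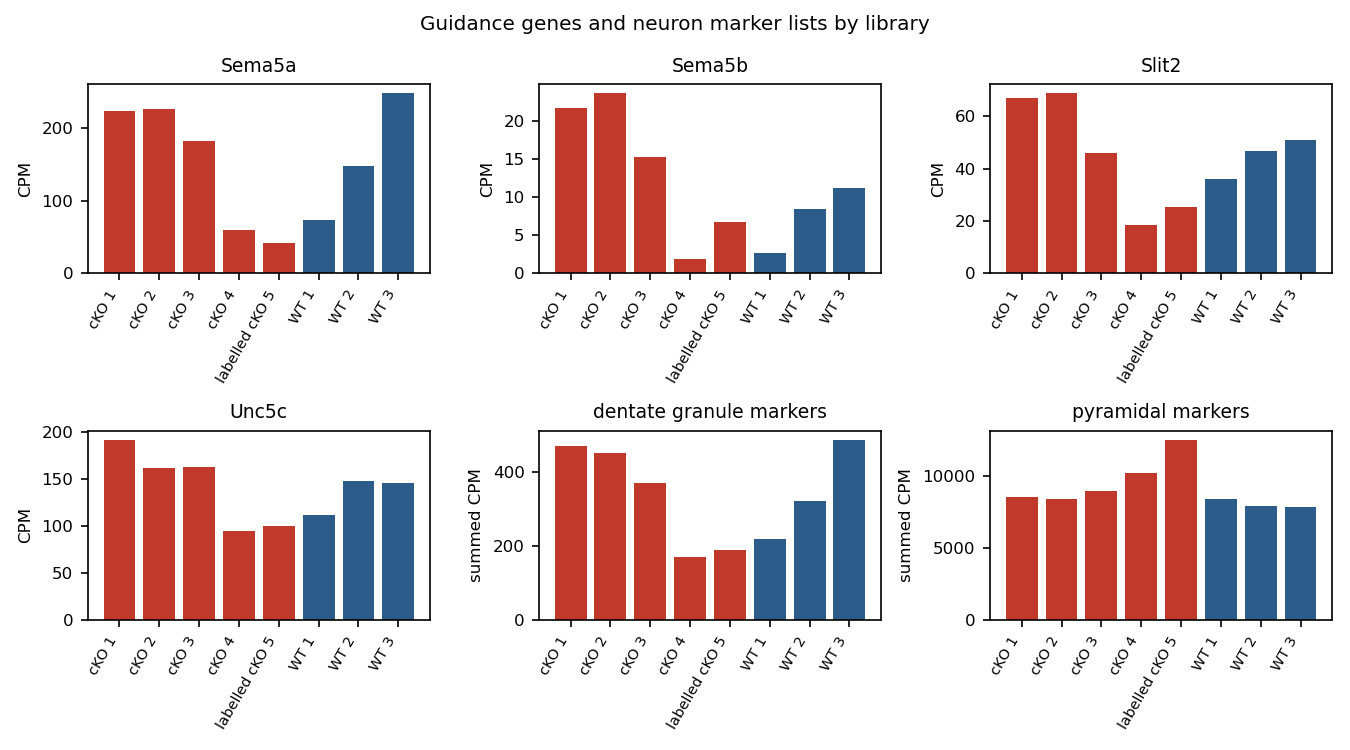
CPM per library of Sema5a, Sema5b, Slit2 and Unc5c and summed CPM of the dentate granule cell and pyramidal neuron marker lists, with cKO libraries in red left of WT libraries in blue. The 4 genes and the dentate granule list are low in cKO 4 and the library labelled cKO 5, and WT 1 is the lowest WT library in each of these 5 panels.

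Of the glial marker lists, those of oligodendrocytes and their precursors did not overlap between the groups in their sums, while those of astrocytes and microglia did. Non-overlap of a list sum has no share of all genes to set beside it. No marker of these lists was called by edgeR. Unadjusted edgeR p-values under 0.05 were seen in 3 of 12 oligodendrocyte, 3 of 9 precursor and 1 of 10 astrocyte markers tested. All of these were higher, beside 5.02% of all genes. In microglia 1 of 7 markers tested was lower, beside 3.7% of all genes. The 12 oligodendrocyte markers summed to 85.3 to 111 CPM in cKO libraries and 73.4 to 78.2 CPM in WT libraries, and 9 markers of their precursors to 43.5 to 60.5 CPM in cKO libraries and 33.3 to 39.5 CPM in WT libraries. Most of the precursor sum was Tnr, which overlapped, at 29.7 to 48.3 CPM in cKO libraries and 25.4 to 31.5 CPM in WT libraries. Mog and Sox10, defining markers of these lists, were at 0.0864 to 0.896 CPM and 0.130 to 0.655 CPM in cKO libraries, and at 0.0798 to 0.350 CPM and 0.186 to 0.691 CPM in WT libraries. Astrocyte markers summed to 345 to 510 CPM in cKO libraries and 333 to 443 CPM in WT libraries, and microglial markers to 7.90 to 15.0 CPM in cKO libraries and 10.7 to 17.9 CPM in WT libraries. Choroid plexus and ependymal markers summed to 25.7 to 77.1 CPM in cKO libraries and 27.8 to 38.5 CPM in WT libraries. The CCK interneuron list, a check of the labelled cell type that includes Cck itself, summed to 1090 to 1318 CPM in cKO libraries and 1033 to 1195 CPM in WT libraries, and parvalbumin and somatostatin markers to 65.9 to 104 CPM in cKO libraries and 72.3 to 88.5 CPM in WT libraries. The pyramidal sum was above the CCK interneuron sum in every library, but these are sums of CPM not scaled to gene length. Camk2a alone was at 6440 to 10057 CPM in cKO libraries and 5930 to 6336 CPM in WT libraries. The sums therefore do not compare the amounts of these cell types. The part of the marker lists in the guidance genes was not tested.

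GC content of the transcripts moved with the differences. The Spearman correlation of log2 fold change with GC content was 0.375 across the 62 members and 0.222 across all genes, a description over genes that share the same libraries. The median GC content was 55.1% in the members tested, against 49.4% in all genes tested, and was 57.3% in the 10 members with an unadjusted p under 0.05, against 53.0% in the other 52. After each library's trend on GC content and length was removed, 4 members (6.45%) were higher at an unadjusted p under 0.05, beside 4.32% of all genes. These were Unc5a, with a log2 fold change of 0.44 and an unadjusted edgeR p of 0.0022, Sema6a, Sema4f (0.49) and Slit1 (0.35). With this correction the share of members was close to that of all genes.

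A list of 69 other genes of axon guidance signalling was also described, which includes adhesion molecules such as L1cam. Of these, 66 were tested and 0 were called by edgeR, with a median log2 fold change of 0.09. At an unadjusted p under 0.05, 3 of 66 were higher (4.55%), beside 5.02% of all genes, and 1 was lower (1.52%), beside 3.7%. These shares lay under those of all genes, so the genes below are a description. L1cam, an adhesion molecule that partners with Nrp1, was at 128, 146, 135, 167 and 170 CPM in the cKO libraries, against 115, 108 and 113 CPM in WT. All cKO values lay above WT, with a log2 fold change of 0.42 (SE 0.12, edgeR adjusted p = 0.499). Dpysl2, a collapsin response mediator that acts downstream of Sema3a, differed by a log2 fold change of 0.20 (SE 0.09), and Cdk5, a kinase in the same pathway, by 0.30 (SE 0.13). Farp2, an exchange factor that acts with class A plexins, was at 19.9 to 22.4 CPM in cKO libraries and 21.8 to 31.6 CPM in WT libraries, with a log2 fold change of -0.39 (SE 0.15, edgeR adjusted p = 0.532).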

How the data were processed

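RNA from TRAP pull-downs was sequenced in 8 libraries (5 cKO, 3 WT). The authors deposited raw counts per Ensembl gene, whole numbers without scaling. Reads were aligned with STAR 2.5.3a to mm10 and counted with HTSeq, per the submitters' processing notes; annotation release, strand setting and filters are not given in the sources used here. Symbols, positions, exon lengths and GC content came from GENCODE vM21 (37693 genes matched, 96.6%). A GC value was known for 98.2% of genes tested and all members tested.

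Genes were tested with edgeR 4.0.16 in R 4.3.3 (TMM scaling, filterByExpr by group, robust quasi-likelihood fit, two-sided, no covariate), with Benjamini-Hochberg adjustment over 17654 genes and calls at an adjusted p under 0.05. Expression is in CPM with TMM-scaled totals, and levels are CPM per kilobase of the union of exons. Single genes were also compared by exact two-sided permutation of log2 CPM (prior count 2) over 56 splits, in 64 genes, with unadjusted exact p-values. Total counts of 31760155 to 61823651 leave counting error small beside the spread between pools, except in genes near the floor.

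The members and lists were chosen with earlier results of these data known. Members described by name were those called, the 8 of smallest p per direction whose mean CPM was 1 or more, and the highest and lowest tested of each family; Hltf and Cck were added. Other members are named where a family is described or groups differ in range, and were chosen after their values were seen. Same-numbered libraries did not deviate together (correlations of -0.04, 0.02 and -0.09 over 14342 genes). So few libraries cannot exclude a pairing, and the labels do not say what the numbers mark. No pair of libraries agreed within sampling noise. Identical counts in all libraries were shared by 74 of the genes tested, 0 of them members; 3 antisense rows (Plxna4os) were left out. Exons on the opposite strand overlap several members, among them Efna3 (14.1% of its exons, with Gm15998) and Epha1 (6.01%, with Zyx). Alternatives were other scalings and filters, non-robust dispersions, DESeq2 1.42.0, limma-voom (limma 3.58.1), each library left out, 6 libraries with shared numbers with and without a replicate block, a correction for GC content and length, an adjusted p under 0.1 and, for levels, the longest transcript as length, which was chosen after seeing the data.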

Additional observations from a re-analysis of the deposited data

Results flagged for a closer look

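Of 63 genes compared within the 5 cKO libraries (the 62 members tested and Hltf), 9 had 1 library far from the other 4 by Dixon's criterion (a gap over 0.71 of the range). A rate of 5% would give about 3.15, but it holds for independent, normally distributed values. CPM of genes from the same libraries are not such values, so the counts cannot be set against each other. In 5 of the 9 genes the library far from the others was the one labelled cKO 5. There Hltf was at 11.44 CPM, against 2.83 to 5.10 CPM in the other cKO libraries. Efnb1, a transmembrane ephrin, was at 11.63 CPM there, against 1.74 to 3.18 CPM in the others. Ephb6, an Eph receptor without kinase activity, was at 25.7 CPM, against 7.99 to 11.6 CPM. Epha6 was at 197.9 CPM, against 124.4 to 137.5 CPM, and Sema4a, a class 4 semaphorin, at 17.03 CPM, against 5.13 to 8.36 CPM. In this library 73 genes had no count despite a mean of at least 1 CPM elsewhere, against 25 in cKO 4 and 4 to 19 in the others.

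In cKO 1, Nrp1 was at 90.49 CPM, against 66.3 to 71.6 CPM in the other cKO libraries, and Robo1 at 119.3 CPM, against 84.6 to 91.6 CPM. In cKO 2, Ntn4 was at 1.678 CPM, against 0.0648 to 0.441 CPM. In cKO 4, Sema6c was at 9.307 CPM, against 1.09 to 1.82 CPM.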

How the results depend on the processing

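edgeR and limma-voom called 0 members under every alternative run, and DESeq2 called 2, Unc5a (log2 fold change 0.68) and Slit1 (0.57). Over all genes, the count called was 0 in the 8-library edgeR fit and 0 to 0 without each library in turn. It was 10 with 6 libraries, 0 with the replicate block, 1 with the replicate block and the GC and length correction, and 1 with that correction alone. It was 2 when genes needed 1 CPM or more in 3 libraries, 2 without a filter, 2 at an adjusted p under 0.1, 4 by limma-voom and 125 by DESeq2. The members called were 0 to 0 without each library in turn. The 10 members at an unadjusted p under 0.05 became 11 with 6 libraries (18%, beside 4.45% of all genes) and 5 with the replicate block (8.2%, beside 3.94%). They became 4 with the GC and length correction (6.45%, beside 4.32%) and 8 with the block and the correction. Without each library in turn there were 4 to 12, with 7 without cKO 4 (11.3%, beside 4.45%). No share of all genes was computed for the block with the correction, or without cKO 1 to 3 or a WT library. All these members were higher in cKO, except 1 lower with the block and the correction (Ephb3, -0.76) and 1 lower without cKO 2 (Ntn4, -2.14). The cause of these changes was not tested.

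Among 32 named members, log2 fold changes of 12 turned their sign under some alternatives, 40 values in all, while 556 kept their direction and their side of the threshold and 2 passed it (Unc5a and Slit1 by DESeq2). With 6 libraries the log2 fold changes were 0.10 for Ephb1, 0.24 for Unc5b, 0.032 for Plxnc1 and -0.024 for Sema7a. With the replicate block they were 0.11 for Ephb1, 0.33 for Unc5b, 0.0095 for Plxnc1 and -0.019 for Sema7a. With the replicate block and the GC and length correction they were 0.066 for Ephb1, 0.21 for Unc5b, 0.030 for Nrp1 and -0.10 for Sema7a. With the GC and length correction alone they were -0.24 for Epha8, -0.0023 for Slit2, 0.056 for Nrp1 and -0.046 for Nrp2, and the median of the Slits was 0.15. limma-voom gave 0.45 for Unc5b. Without each library in turn the log2 fold change ran from -0.38 to 0.034 for Epha3, -0.49 to 1.098 for Epha8, -0.33 to 0.023 for Ephb1, -1.27 to 0.23 for Robo3, -0.18 to 0.22 for Slit2, -0.15 to 0.033 for Efnb2, -0.40 to 0.53 for Unc5b, -0.13 to 0.068 for Nrp1, -0.075 to 0.14 for Nrp2, -0.19 to 0.038 for Plxnc1 and -0.24 to 0.073 for Plxnd1. None of these genes had an unadjusted p under 0.05 in the 8-library fit. The depth leaves Ntn1, Epha8 and Sema3f, all under 1 CPM, without a readable difference. With the longest transcript as length, the levels of Nrp1, Epha4 and Robo2 changed by more than their spread, Robo2 without remaining the highest Robo.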
